A study of Mus musculus with 15 samples.

Results

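Collagens are the main structural proteins of the extracellular matrix. The chain genes examined here were all rows of the count table whose Ensembl identifier carries a mouse symbol of the form Col, digits, a, digits. Of 44 such genes, 37 had at least 10 counts in at least 3 of 15 libraries and were kept, and all 37 also entered the test across 16976 genes. The 7 genes left out were Col10a1, Col13a1, Col6a4, Col17a1, Col4a6, Col6a6 and Col9a1. Just outside the limit, Col10a1 and Col13a1 each reached 10 counts in 2 libraries, with 102 and 79 counts in total. Just inside it, Col22a1 reached 10 counts in 9 libraries and had 168 counts in total.

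The libraries are bulk RNA-seq of the fourth to sixth lumbar dorsal root ganglia, which hold the cell bodies of the sensory neurons of the hind limb with their glia, vessels and connective tissue. The 4 groups were 5 naive controls, 4 naive knockouts, 3 controls after spared nerve injury (SNI) and 3 knockouts after SNI, each library from 1 numbered mouse aged 3 to 6 months on a mixed background in which C57bl6 prevails. Knockout mice were Wnt1-Cre; mirflox/flox, in which Cre acts in the neural crest and its descendants, among them sensory neurons, satellite glia and Schwann cells, so that other cells of the ganglion keep the microRNA-183 cluster. Controls carried Wnt1-Cre alone (naive 1, 2, 3 and 6, SNI 15) or were wild type, written wt (naive 7, SNI 18 and 23). Most naive controls but only SNI 15 of the injured controls thus carried Cre, as did all knockouts. The Cre allele is therefore partly mixed with injury in controls and with genotype after injury, and cannot be fully told apart from them. In SNI the common peroneal and tibial branches of the sciatic nerve are tied and cut and the sural branch is spared. The ganglia lie upstream of the cut and contain both cut and spared neurons, and the time from surgery to collection is not given in the sources used here.

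Each collagen molecule is a triple helix of 3 chains, which can be of 1 kind or several. Fibrillar collagens assemble into fibrils, type IV collagens form the network of basement membranes, type VI collagens form beaded filaments around cells, and fibril-associated collagens decorate fibrils. In a ganglion, basement membranes surround the satellite glia, Schwann cells and vessels, and fibrils fill the endoneurium and the capsule.

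Library totals ranged from 5252920 to 10822762 counts. Sensory neuron markers summed to between 7218 and 9033 CPM (a count as a share of the TMM-scaled library total, in millionths) and Schwann cell markers to between 5222 and 12062 in all libraries. Control SNI 23 stood apart, with the lowest total, 7.43% of counts from mitochondrial genes against 2.26 to 3.60% elsewhere, and a TMM factor of 0.884 against 0.977 to 1.03. The knockout could not be checked in these files, since Mir183, Mir96 and Mir182 had 0, 1 and 2 counts over all libraries together. Animal numbers of the naive mice run from 1041 to 1082 and those of the injured mice from 948 to 976, so injury and any difference between these series of animals cannot be told apart.

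After injury, 3 collagen genes passed the test in 1 genotype or both. In controls (3 injured, 5 naive) Col5a3 rose 1.99-fold and no collagen gene was called lower, a call that was lost under several alternatives. In knockouts (3 injured, 4 naive) Col5a3 rose 2.07-fold, Col18a1 rose 2.14-fold and Col11a1 fell to 0.555 of its naive level. Both rises in knockouts lost their call without knockout SNI 19, and Col18a1 also with only the 2 groups compared. The call of Col11a1 was kept under each alternative run. The abundant chains Col1a1, Col1a2, Col3a1 and Col4a1 were not called in any comparison, though leaving out knockout SNI 13 called Col1a1, Col1a2 and Col4a1 higher in injured knockouts, and no collagen gene was called between genotypes, before or after injury. A gene was called at an adjusted p under 0.05 in edgeR's quasi-likelihood test with Benjamini-Hochberg adjustment over all genes.

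These counts were read against the whole table. In controls 1 of 37 members was called higher where 2.12% of all genes were, and 0 were called lower where 0.359% were. In knockouts 2 of 37 were called higher where 7.17% of all genes were, and 1 was called lower where 2.94% were. The median log2 fold change of the members after injury was -0.10 in controls, beside 0.02 over all genes, and 0.09 in knockouts, beside -0.02. A positive log2 fold change was seen in 11 of 37 members in controls, beside 9106 of 16976 over all genes. In knockouts it was seen in 27 of 37 members, beside 8074 of 16976. These medians moved when some single libraries were left out. The control median was 0.07 without SNI 23, -0.26 without SNI 18 and -0.21 without SNI 15. It was -0.04, -0.16, -0.06, -0.10 and -0.12 without naive 1, 2, 3, 6 and 7, so its sign changed only without SNI 23. The knockout median was 0.03 without SNI 19, 0.24 without SNI 13 and 0.13 without SNI 21. It was 0.10, 0.21, 0.17 and 0.09 without naive 4, 5, 8 and 9, and thus stayed positive whichever library was left out.

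The promoters of the 2 fibrillar chain genes that were called, in opposite directions, are shown first, so that they can be compared. RefSeq promoter windows (GRCm38.p6, from 250 bases before to 50 after the annotated start) matched 28 of 37 members, with 30 windows. The motifs searched, on both strands, were the CCAAT box (CCAAT), the AP-1 site (TGANTCA), the cyclic AMP response element (TGACGTCA), the GC box (GGGCGG) and the TATA box (TATAAA). Matches are in capitals, 5′ to 3′ on the strand of the gene. The windows are chr9:20815018-20815317 on the minus strand for Col5a3 and chr3:114030290-114030589 on the plus strand for Col11a1.
Col5a3: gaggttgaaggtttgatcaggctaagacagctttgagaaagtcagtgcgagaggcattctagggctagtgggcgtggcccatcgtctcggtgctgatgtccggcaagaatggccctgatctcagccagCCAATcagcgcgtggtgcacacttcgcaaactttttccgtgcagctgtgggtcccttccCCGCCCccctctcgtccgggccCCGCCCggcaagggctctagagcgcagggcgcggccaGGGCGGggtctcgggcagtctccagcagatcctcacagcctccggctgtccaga
Col11a1: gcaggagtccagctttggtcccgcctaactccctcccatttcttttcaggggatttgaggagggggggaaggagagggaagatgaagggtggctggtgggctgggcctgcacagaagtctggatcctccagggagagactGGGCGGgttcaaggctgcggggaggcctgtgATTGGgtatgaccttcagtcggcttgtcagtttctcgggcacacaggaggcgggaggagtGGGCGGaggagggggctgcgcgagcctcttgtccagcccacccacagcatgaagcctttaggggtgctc
Each window holds 1 CCAAT box. The Col5a3 window holds 3 GC boxes and the Col11a1 window 2, and neither holds a match to the other motifs. Over the members, 20 of 30 windows (66.7%) held a GC box, against 35.7% of 32851 windows of the whole table, and 10 (33.3%) held a CCAAT box, against 37.4%. AP-1 matched 1 window (Col6a1), against 7.81% of all windows. The cyclic AMP response element matched 1 (Col24a1), against 1.79%. The TATA box matched 2 (Col11a2 and Col3a1), against 13.6%. These matches describe letters in the windows only.

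Per kb of exon and averaged over all 15 libraries, Col5a3 had the highest level of the members, 29.0 CPM per kb, followed by Col1a2 (23.9), Col1a1 (22.1), Col28a1 (19.3), Col3a1 (18.2) and Col4a1 (15.7). This order rests on the length of all annotated exons joined, 6809 bases for Col5a3 and 12426 for Col1a2. In CPM, without division by length, Col1a2 was above Col5a3 over all libraries (297 against 197) and in each group mean. The order per kb differed between group means. In naive controls Col1a2 (24.0) and Col1a1 (20.6) were above Col5a3 (19.5), and in naive knockouts Col1a2 (22.3) was above Col5a3 (21.7). By group means Col5a3 was thus first only after SNI, at 38.6 CPM per kb in controls and 45.0 in knockouts. Single libraries departed from this: Col5a3 was also first per kb in naive knockout 8, and was below Col1a2 in control SNI 23. At the other end were Col6a5 (0.167), Col4a4 (0.152) and Col22a1 (0.124 CPM per kb). The 5 genes Col1a2, Col5a3, Col3a1, Col1a1 and Col4a1 made up 50.2% of the summed CPM of the members, in which longer transcripts weigh more. The sum over all members was 1776 ± 264 CPM in naive controls (SD, n = 5), 1739 ± 117 in naive knockouts (n = 4), 1815 ± 429 in controls after SNI (n = 3) and 2219 ± 530 in knockouts after SNI (n = 3). The ranges of the 4 groups overlapped. In bulk ganglia, fewer cells of a type and less RNA per cell cannot be told apart, which holds for every level given here.

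Col5a3 (ENSMUSG00000004098, chr9:20770050-20815067, minus strand, GRCm38) encodes the α3 chain of type V collagen, which joins the α1(V) and α2(V) chains in one form of this minor fibrillar collagen. Its levels were 148, 113, 140.1, 130.3 and 132 CPM in naive controls 1, 2, 3, 6 and 7, and 305, 359 and 124 CPM in control SNI 15, 18 and 23. SNI 15 and 18 lay above every naive control and SNI 23 lay among them. The fold change was 1.99 (log2 0.99, SE 0.24, edgeR adjusted p = 0.0476). This call is at the edge of the threshold: the adjusted p was 0.174 without SNI 18, 0.0751 without SNI 15, between 0.0595 and 0.0888 without any one naive control, and 2.05e-05 without SNI 23.

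In knockouts, Col5a3 stood at 138, 131, 187 and 136 CPM in naive 4, 5, 8 and 9, and at 270.5, 372 and 277 CPM in SNI 13, 19 and 21. All injured knockouts were above all naive ones. The fold change was 2.07 (log2 1.05, SE 0.26, edgeR adjusted p = 0.0206), and without knockout SNI 19 it was no longer called (log2 0.89, adjusted p = 0.114). The injury effect differed between genotypes by 0.06 on the log2 scale (SE 0.36, edgeR adjusted p = 0.950), which does not show that the responses were alike.

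Col11a1 (ENSMUSG00000027966, chr3:114030540-114220718, plus strand) encodes the α1 chain of type XI collagen, a fibrillar chain of cartilage that can also assemble with type V chains. Naive knockouts 4, 5, 8 and 9 had 71.2, 66.6, 96.0 and 62.7 CPM, and knockout SNI 13, 19 and 21 had 41.1, 41.8 and 40.6 CPM. The groups did not overlap, and the injured libraries lay within a narrow range. Col11a1 fell by 0.85 on the log2 scale (SE 0.18, edgeR adjusted p = 0.00687), and it was called again whichever knockout library was left out (adjusted p 0.00818 to 0.0369). Naive controls 1, 2, 3, 6 and 7 had 67.3, 50.5, 64.4, 59.1 and 57.0 CPM, and control SNI 15, 18 and 23 had 55.5, 48.0 and 29.6 CPM. In controls the ranges overlapped and the log2 fold change of -0.41 (SE 0.17) did not pass (edgeR adjusted p = 0.249). The difference between the injury effects was -0.44 (SE 0.24, edgeR adjusted p = 0.405).

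**Figure D1:**
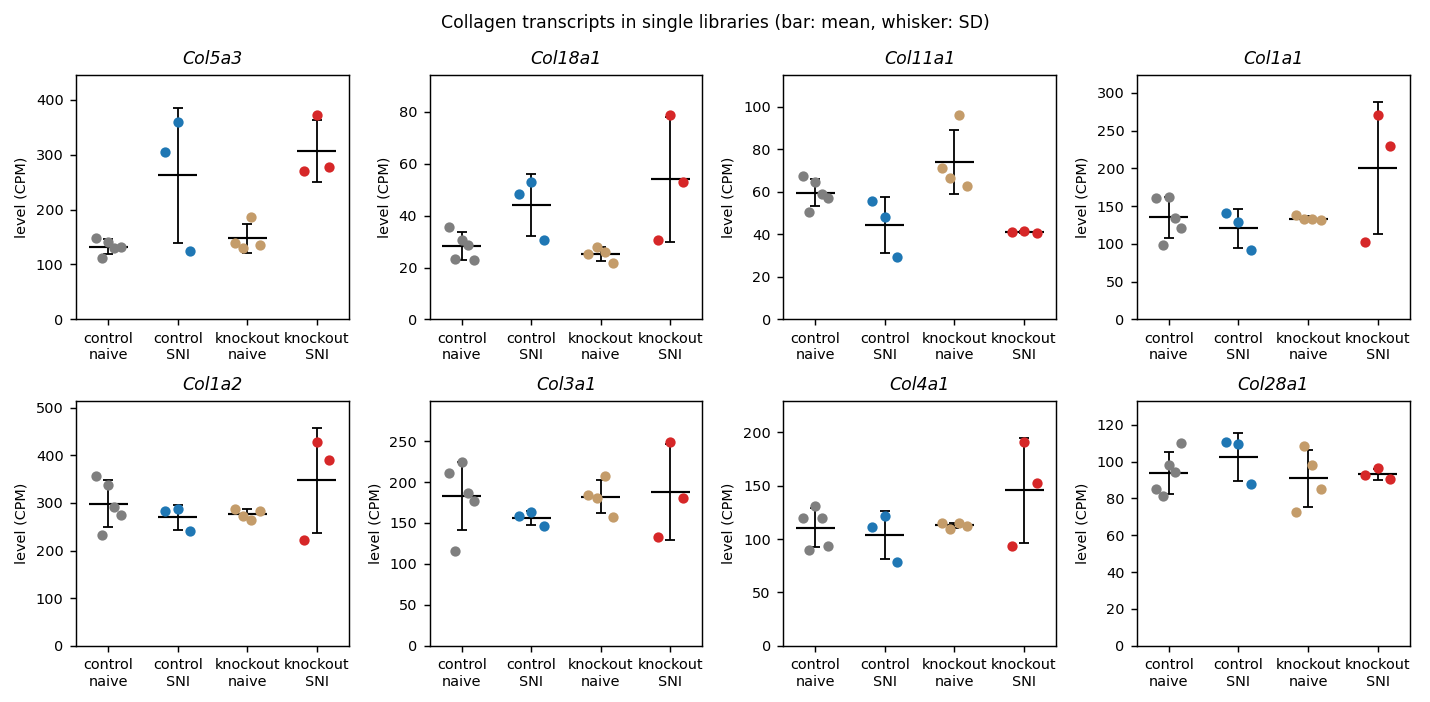
Levels in CPM (vertical axes, starting at 0) of the 3 called collagen genes and the 5 others of the highest level per kb, 1 point per library in the 4 groups, with the group mean (bar) and SD (whisker). Col5a3 is at 270.5 CPM or more in all injured knockouts and at 187 or less in all naive libraries, while control SNI 23 (124 CPM) lies among the naive controls.

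The type V and XI chains were also set against each other within each library. Such a ratio does not depend on the library total. The pairs were chosen after the levels were seen, so no test is given. The ratio of Col5a3 to Col5a1, the gene of the α1(V) chain, per kb, was 4.10 to 5.12 in naive controls and 4.57 to 5.99 in naive knockouts. After SNI it was 10.04, 11.5 and 7.10 in controls 15, 18 and 23 and 11.3, 8.01 and 7.68 in knockouts 13, 19 and 21. All injured libraries were above all naive ones. In SNI 23, however, Col5a3 itself (124 CPM) lay among the naive controls, while Col5a1 (21.8 CPM) was below every naive library (27.5 CPM or more). How often other pairs of genes separate the groups in this way was not counted. The ratio of Col11a1 to Col5a1 went the other way, from 1.01 to 1.23 in naive controls and 1.24 to 1.65 in naive knockouts to 0.824 to 0.976 in injured controls and 0.481 to 0.917 in injured knockouts. Here all injured libraries were below all naive ones.

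**Figure D2:**
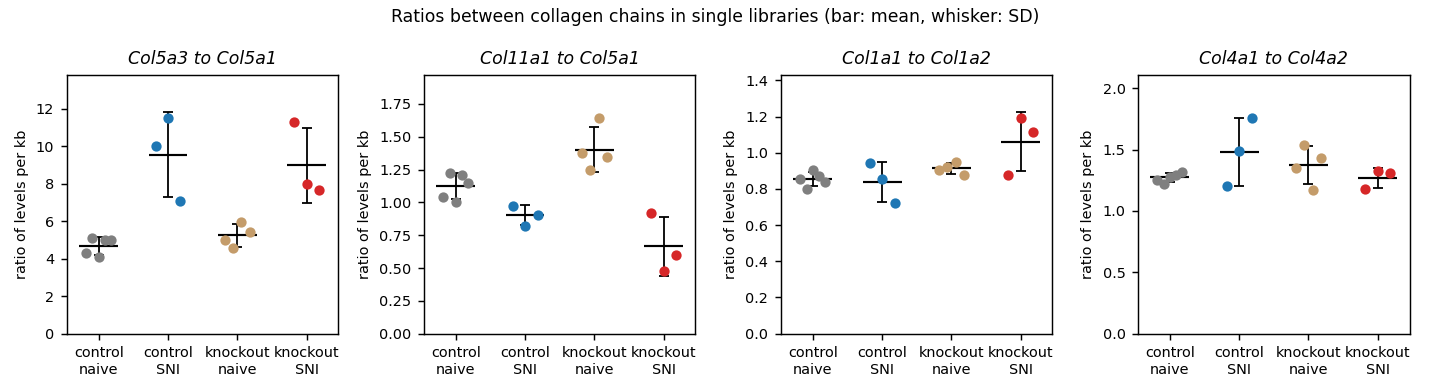
Ratios of levels per kb (vertical axes, starting at 0) between pairs of collagen chains, 1 point per library, with the group mean (bar) and SD (whisker). Col5a3 to Col5a1 is 7.10 or more in all 6 injured libraries and 5.99 or less in all 9 naive ones, whereas the groups overlap for Col1a1 to Col1a2 and for Col4a1 to Col4a2.

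Of the type V partners, Col5a1 itself had log2 fold changes of -0.10 (SE 0.21) in controls and 0.34 (SE 0.22) in knockouts. Col5a2, the gene of the α2(V) chain, had 0.58 (SE 0.19, edgeR adjusted p = 0.151) in controls and 0.63 (SE 0.20, edgeR adjusted p = 0.0582) in knockouts. In knockouts all 3 injured libraries (72.9 to 105.6 CPM) were above all 4 naive ones (41.8 to 67.7 CPM) for Col5a2. Of the alternatives run, Col5a2 was called in controls only without SNI 23. In knockouts it was called with RLE factors, with DESeq2, with the filter of 10 counts in 3 libraries, with only the 2 groups compared and without naive 8.

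Type I collagen, the main fibrillar collagen of connective tissue, is built of 2 chains from Col1a1 and 1 from Col1a2. Col1a1 stood at 161, 98.3, 162, 134 and 121 CPM in naive controls and at 138, 133, 133 and 131 CPM in naive knockouts. After SNI it was at 141, 129 and 91.9 CPM in controls and at 103, 270.4 and 229.8 CPM in knockouts. Injured knockouts were thus spread more widely than any other group, with SNI 19 and 21 above and SNI 13 below all naive knockouts. The log2 fold changes were -0.16 (SE 0.25) in controls and 0.59 (SE 0.26, edgeR adjusted p = 0.155) in knockouts. Without knockout SNI 13 the latter was 0.90 and was called (edgeR adjusted p = 0.00572), and without SNI 19 it was 0.32 (adjusted p = 0.539).

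Col1a2 stood at 357, 232, 338, 291 and 274 CPM in naive controls and at 288, 273, 264 and 283 CPM in naive knockouts. After SNI it stood at 283, 286 and 240.2 CPM in controls and at 222, 429 and 391 CPM in knockouts, again with SNI 13 lowest. The log2 fold change in knockouts was 0.33 (SE 0.18, edgeR adjusted p = 0.249), and without SNI 13 it was 0.57 and was called (adjusted p = 0.0200). The ratio of Col1a1 to Col1a2 per kb had a median of 0.877 over the libraries and ranged from 0.725 to 1.19. Its absolute level rests on the exon lengths used, 6563 bases for Col1a1 and 12426 for Col1a2, which join the exons of all annotated transcripts.

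Type III collagen, a homotrimer that shares fibrils with type I, is encoded by Col3a1. Its levels were 211, 116, 225, 186 and 177 CPM in naive controls, and 184, 180.2, 207 and 158 CPM in naive knockouts. After SNI they were 158, 163 and 147 CPM in controls and 133, 249 and 181 CPM in knockouts. All groups overlapped, with log2 fold changes of -0.23 (SE 0.20) and 0.04 (SE 0.20).

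Among the other fibrillar chains, Col24a1 (39.7 CPM on average), Col27a1 (19.2), Col11a2 (6.77) and Col2a1 (4.16) were not called. Their log2 fold changes after injury lay between -0.49 (Col11a2) and 0.37 (Col27a1) in controls and between -0.42 (Col11a2) and 0.34 (Col27a1) in knockouts. Over the 11 fibrillar genes, 1 was called higher in controls, and 1 higher and 1 lower in knockouts, with medians of -0.10 and 0.33. Of all genes, 2.12% were called higher in controls, and 7.17% higher and 2.94% lower in knockouts.

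Col4a1 and Col4a2 encode the α1(IV) and α2(IV) chains, which form the type IV collagen of nearly all basement membranes. The genes lie head to head on chromosome 8, and their promoter windows share 78 bases, chr8:11312777-11312854, which are in capitals here in the Col4a2 window (plus strand, GRCm38.p6).
Col4a2: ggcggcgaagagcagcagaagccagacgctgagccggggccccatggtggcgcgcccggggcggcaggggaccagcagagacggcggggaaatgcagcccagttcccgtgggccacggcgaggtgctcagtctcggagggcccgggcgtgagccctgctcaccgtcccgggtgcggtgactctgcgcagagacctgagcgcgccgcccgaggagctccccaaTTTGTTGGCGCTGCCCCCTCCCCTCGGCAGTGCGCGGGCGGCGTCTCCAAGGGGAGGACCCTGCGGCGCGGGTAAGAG
Col4a1 stood at 119, 89.9, 131, 120 and 93.2 CPM in naive controls and at 115, 109.8, 115 and 113 CPM in naive knockouts. After SNI it stood at 112, 121 and 78.8 CPM in controls and at 93.8, 191 and 152 CPM in knockouts. As for the type I chains, knockout SNI 13 was below and SNI 19 and 21 above all naive knockouts. Log2 fold changes were -0.09 (SE 0.19) for Col4a1 and -0.23 (SE 0.22) for Col4a2 in controls, and 0.37 (SE 0.20) and 0.45 (SE 0.23) in knockouts, with edgeR adjusted p of 0.221 or more. Without knockout SNI 13 Col4a1 was called higher in knockouts (log2 0.60, edgeR adjusted p = 0.0345). The ratio of Col4a1 to Col4a2 per kb stayed between 1.17 and 1.76 over all libraries.

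The α3, α4 and α5 chains of type IV belong to the basement membranes of a few tissues, such as the kidney filter. Their genes were far lower in the ganglia, at 2.74 (Col4a3), 1.62 (Col4a4) and 5.24 CPM (Col4a5). Col4a3 was at 2.52 to 5.08 CPM in naive controls and at 1.08 to 2.37 CPM in controls after SNI, with no overlap, but the log2 fold change of -0.86 (SE 0.28) did not pass (edgeR adjusted p = 0.132). None of the 5 basement membrane chains was called.

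Col18a1 (ENSMUSG00000001435, chr10:77052178-77166548, minus strand) and Col15a1 encode the multiplexins, collagens attached to basement membranes. The C-terminal fragment of the Col18a1 product is endostatin, an inhibitor of vessel growth. Col18a1 had 25.2, 27.96, 26.1 and 21.8 CPM in naive knockouts 4, 5, 8 and 9, and 30.5, 78.7 and 53.0 CPM in knockout SNI 13, 19 and 21. The groups did not overlap, though SNI 13 was only just above the naive libraries. The fold change was 2.14 (log2 1.10, SE 0.26, edgeR adjusted p = 0.0160). Without SNI 19 the gene was no longer called (log2 0.73, adjusted p = 0.113), and without SNI 13 the log2 fold change was 1.38 (adjusted p = 8.92e-04).

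In controls, Col18a1 had 35.7, 23.2, 30.6, 28.6 and 22.9 CPM in naive libraries 1, 2, 3, 6 and 7, and 48.5, 53.2 and 30.6 CPM in SNI 15, 18 and 23. SNI 15 and 18 were above all naive controls. The log2 fold change of 0.66 (SE 0.25) did not pass (edgeR adjusted p = 0.213), and the difference between genotypes was 0.44 (SE 0.36, edgeR adjusted p = 0.569). Col15a1 had log2 fold changes of -0.29 (SE 0.23) in controls and 0.17 (SE 0.23) in knockouts.

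**Figure D3:**
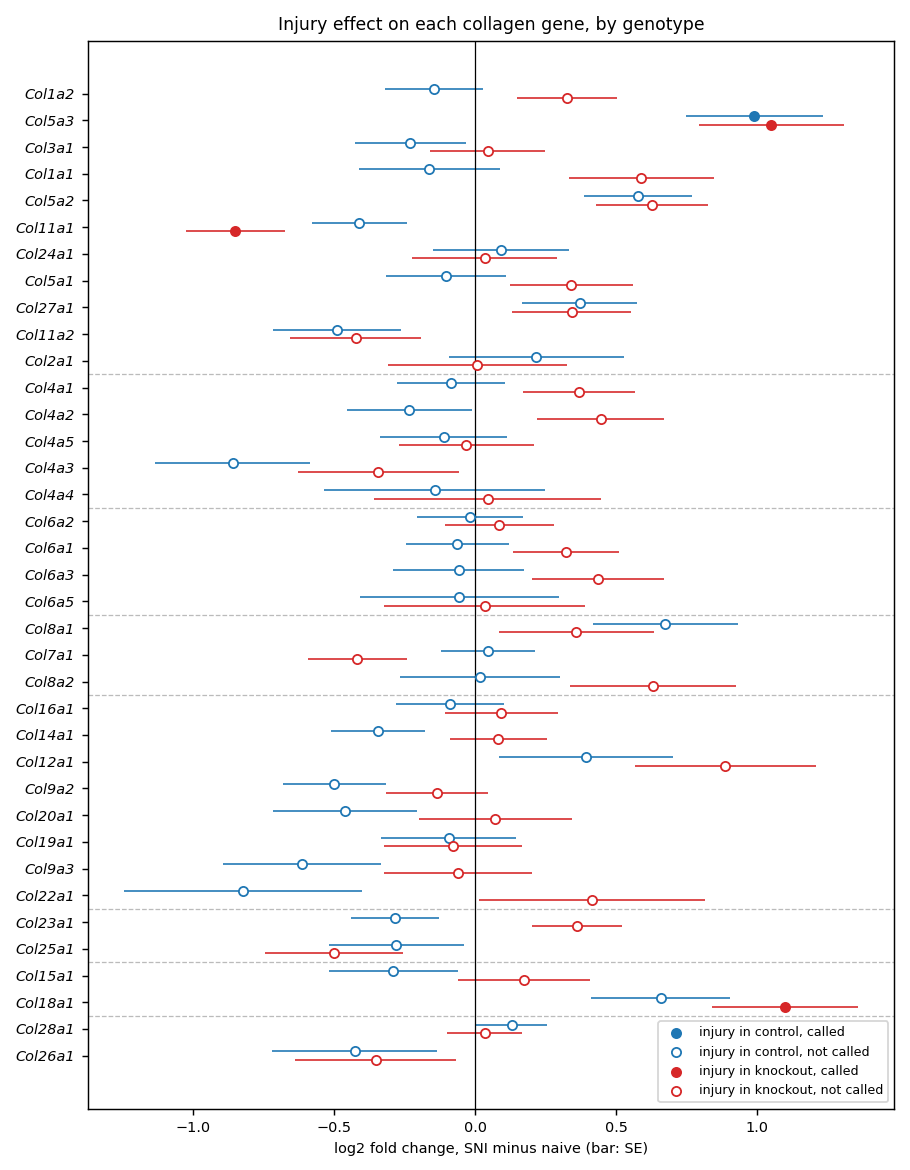
Log2 fold change after injury (horizontal axis, SNI minus naive, with SE bars) of all 37 collagen genes, ordered by structural class and within it by level, in controls and in knockouts. Filled points are genes called at an adjusted p under 0.05: Col5a3 in both genotypes, and Col18a1 and Col11a1 in knockouts.

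Type VI collagen, which forms beaded filaments between cells and fibrils, was represented by Col6a1 (49.1 CPM), Col6a2 (53.5), Col6a3 (25.2) and the low Col6a5 (1.57). None was called. In controls their log2 fold changes ran from -0.06 to -0.02. In knockouts they ran from 0.03 (Col6a5) to 0.44 (Col6a3, SE 0.23, edgeR adjusted p = 0.243).

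Fibril-associated collagens bind to the surface of fibrils. Of 8 measured, none was called after injury in either genotype. The highest value was that of Col12a1, a partner of type I fibrils, in knockouts: 22.9 to 39.7 CPM in naive and 53.4 to 60.9 CPM in injured libraries, with no overlap and a log2 fold change of 0.89 (SE 0.32, edgeR adjusted p = 0.0968). In controls 7 of the 8 had negative values, the median being -0.40. Among them Col9a2, a type IX chain, was at 9.84 to 13.8 CPM in naive and 7.54 to 9.18 CPM in injured controls, without overlap (log2 -0.50, SE 0.18, edgeR adjusted p = 0.199). Col14a1, a relative of Col12a1, had -0.34 (SE 0.17) in controls and 0.08 (SE 0.17) in knockouts.

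Col8a1 and Col8a2 encode the chains of type VIII collagen, a network-forming collagen of vessel walls, and Col7a1 that of anchoring fibrils. None was called. Col8a1 had log2 fold changes of 0.68 (SE 0.26) in controls and 0.36 (SE 0.28) in knockouts, Col8a2 0.02 (SE 0.28) and 0.63 (SE 0.29), and Col7a1 0.05 (SE 0.17) and -0.42 (SE 0.18).

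The transmembrane collagens Col23a1 (57.6 CPM) and Col25a1 (8.38 CPM) were not called either. Col23a1 had the smallest unadjusted p of the members for a difference between the injury effects, with -0.28 (SE 0.16) in controls and 0.36 (SE 0.16) in knockouts, a difference of 0.65 (SE 0.22, edgeR adjusted p = 0.365). Col28a1, a collagen of peripheral nerve glia, stood at 85.4, 81.4, 98.3, 94.6 and 110.2 CPM in naive controls and at 72.5, 108, 98.3 and 84.9 CPM in naive knockouts. After SNI it was at 111, 109 and 87.6 CPM in controls and 92.9, 96.3 and 90.3 CPM in knockouts. All groups overlapped, with log2 fold changes of 0.13 (SE 0.13) and 0.03 (SE 0.13). Col26a1 (5.01 CPM) had -0.43 (SE 0.29) and -0.35 (SE 0.29).

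Counted by libraries that do not overlap between the groups, 0 members were higher and 2 lower in controls after SNI (Col4a3 and Col9a2), where 8.21% of all genes did not overlap. In knockouts 6 were higher (Col18a1, Col5a3, Col5a2, Col12a1, Col8a2 and Col8a1) and 1 lower (Col11a1), where 34.2% of all genes did not overlap. These 7 of 37 are a smaller share than that of the whole table.

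Members often went up or down together in a library. Control SNI 23 was the lowest of its group for 31 of 37 members, against 43.5% of all genes. Knockout SNI 19 was the highest of its group for 28 members, against 31.8% of all genes, and SNI 13 the lowest for 28, against 36.4%. Among naive controls, library 2 was the lowest for 25 members, against 19.7% of all genes. Summed over the members, SNI 23 had 1330 CPM beside 1972 and 2143 in the other injured controls, and naive control 2 had 1387 CPM beside 1698 to 2034.

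Transcript length moved with this in the injured controls. The exons of the members have a median length of 7621 bases, against 4058 bases over the tested genes, and 29 of 37 members fall in the longest of 4 equal classes of exon length. In control SNI 23, genes of the longest class had a median of -0.25 on the log2(CPM + 0.5) scale relative to the other injured controls and those of the shortest class 0.35, while the members had -0.56. From the shortest to the longest class the medians ran from -0.24 to 0.13 in control SNI 15 (members 0.28). In control SNI 18 they ran from -0.16 to 0.10 (members 0.37). Each library was set against the others of its group, SNI 23 among them, so the trend cannot be assigned to 1 library. The part of length in the collagen values of these libraries was not tested. In naive control 2 (members -0.40) and knockout SNI 13 (members -0.36) the medians of the classes lay between -0.01 and 0.04, and between -0.01 and 0.03.

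**Figure D4:**
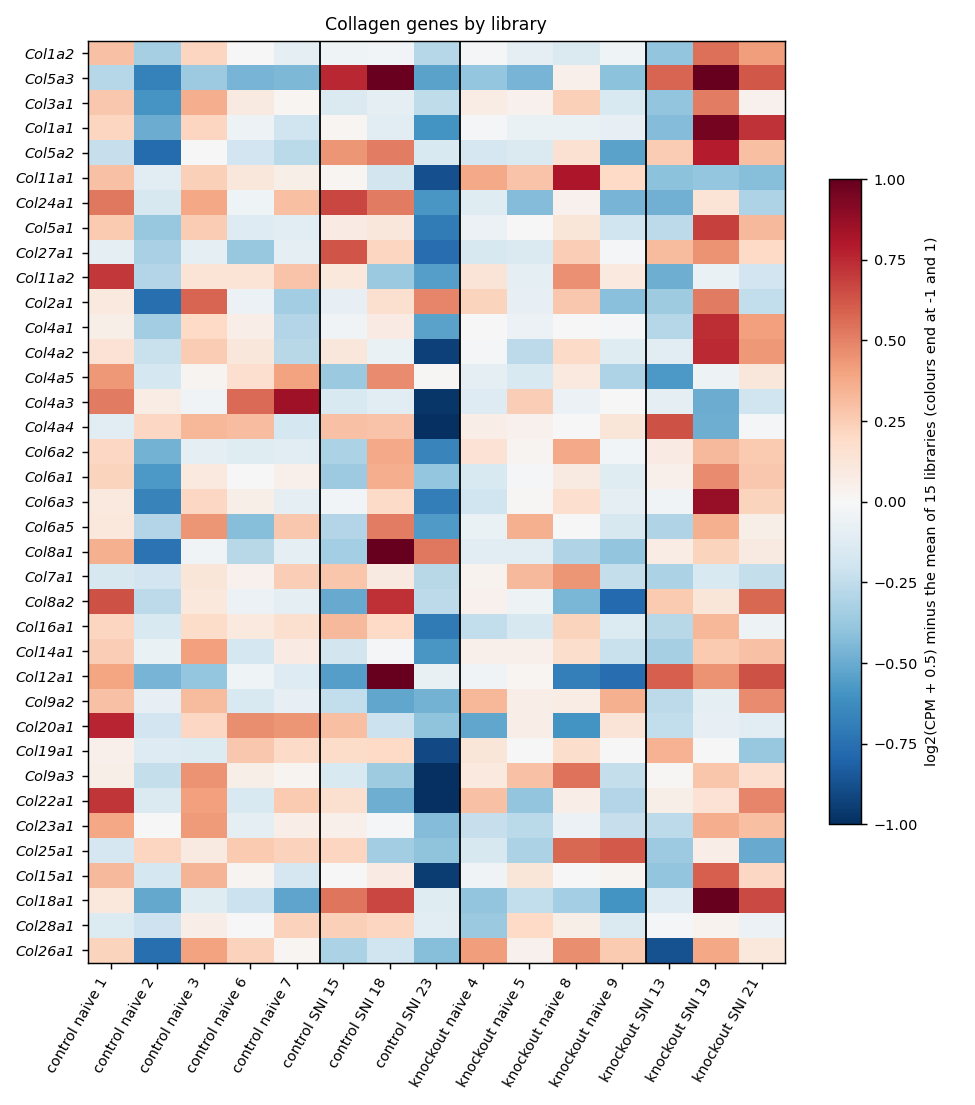
Collagen genes (rows, ordered by structural class) in each library (columns, by group), as log2(CPM + 0.5) minus the mean of the 15 libraries, with red above and blue below that mean. Control SNI 23, naive control 2 and knockout SNI 13 are blue for most genes, and knockout SNI 19 is red for most.

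Markers of the cells that make collagen, and then of other cells, were read in the same libraries. Beside the counts of markers called, 2.12% of all genes were called higher and 0.359% lower after injury in controls. In knockouts 7.17% were called higher and 2.94% lower. The 8 fibroblast markers summed to 633 to 1120 CPM in naive controls, 698 to 778 in naive knockouts, 688, 1179 and 1982 in control SNI 15, 18 and 23, and 730.5 to 839 in injured knockouts, and none was called after injury. In SNI 23 Dcn (1519 CPM) and Lum (336 CPM) were higher than in any other library, while Pdgfra (19.9 CPM) and Pi16 (3.67 CPM) were not. Naive control 2, low in collagens, had the lowest fibroblast sum, 633 CPM. Injured knockouts went the other way: SNI 19, with the highest collagen sum (2726 CPM), had the lowest fibroblast sum among them, 730.5 CPM. SNI 13, with the lowest collagen sum of that group (1669 CPM), had 797 CPM.

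The 6 perineurial markers summed to 143 to 184 CPM in naive controls, 159 to 167 in naive knockouts, 183.2 to 224 in injured controls and 234 to 266 in injured knockouts, and 3 of 6 were called higher in injured knockouts. The 7 endothelial markers summed to 80.3 to 85.4, 72.5 to 90.9, 81.4 to 116 and 96.7 to 120 CPM in the same groups, with 2 called higher in knockouts. The 9 macrophage markers summed to 122 to 146, 143 to 224, 202 to 329 and 247 to 315 CPM, with 7 called higher in controls and 5 in knockouts. Schwann cell markers summed to 7906 to 12062, 8687 to 10090, 6490 to 7126 and 5222 to 10061 CPM, with none called.

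Of other tissue that could adhere to a ganglion, skeletal muscle markers summed to 6.74 to 102, 19.9 to 205, 9.28 to 345 and 162 to 1232 CPM, with 1 of 8 called higher in knockouts. The 5 adipocyte markers, 3 of them tested, summed to 3.32 to 50.6 CPM in all libraries but knockout SNI 19, with 188 CPM, which was also the library of the highest collagen sum (2726 CPM). The cartilage and bone list, 4 of 8 tested, summed to 20.8 to 41.7, 19.3 to 22.2, 17.5 to 19.6 and 23.9 to 49.8 CPM in the same groups, with Matn1 at 0 in every library. Of these markers Comp was called lower in injured controls (log2 -1.86, edgeR adjusted p = 0.0466), and Sox9 (log2 1.18) and Ibsp (log2 0.72) higher in injured knockouts. The part of these cells in the collagen values was not tested.

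The genotypes were compared next. In naive ganglia 0 of 37 members were called by edgeR where 1.89% of all genes were, with 2 at an unadjusted p under 0.05 (Col20a1, log2 -0.65, and Col23a1, log2 -0.37), beside 1984 of 16976 over all genes, and 0 called by DESeq2. After injury 0 were called where 1.04% of all genes were, with 5 members at an unadjusted p under 0.05, beside 3862 of 16976 over all genes. In both cases the members' share is below that of all genes. The 5 were Col1a1 (log2 0.73), Col9a2 (0.51), Col4a2 (0.62), Col9a3 (0.70) and Col4a1 (0.48). DESeq2 also called 0. The smallest edgeR adjusted p was 0.230 in naive and 0.156 in injured ganglia. The median log2 difference of the members, knockout minus control, was -0.03 in naive ganglia and 0.23 after injury, beside 0.00 and -0.01 over all genes. The members' median in naive ganglia was -0.11 without naive control 2 and 0.04 without naive control 1. The members' median after injury was 0.09 without knockout SNI 19, 0.11 without control SNI 23 and 0.39 without control SNI 18. Libraries did not overlap between genotypes for 0 members in naive ganglia, where 9.63% of all genes did not, and for 1 (Col9a3) after injury, where 16.2% did not.

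The injury effect itself was compared between genotypes by an interaction contrast. It called 0 members and 0% of all genes in edgeR, with 2281 of all genes and 3 members (Col23a1, Col22a1 and Col4a2) at an unadjusted p under 0.05, while DESeq2 called 12 genes and no member. The difference was positive, that is, toward higher values in injured knockouts, for 29 of 37 members, with a median of 0.27, beside 8553 of 16976 genes and a median of 0.00 over the whole table. The members' median was 0.07 without knockout SNI 19, 0.42 without knockout SNI 13 and 0.43 without control SNI 18. The comparisons share their libraries, so these values are not independent of those above.

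Since the knockout removes the microRNA-183 cluster, the mature sequences of its 3 members and the collagen genes that carry a full seed site are shown. The seed, bases 2 to 8, is in capitals, from RefSeq (GRCm38.p6).
miR-183-5p: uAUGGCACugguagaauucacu
miR-96-5p: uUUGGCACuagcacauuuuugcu
miR-182-5p: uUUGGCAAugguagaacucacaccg
A site of 8 bases (the complement of the seed followed by A) was found in the annotated 3′ untranslated region of 5 of 37 members, or 13.5%, against 10.2% of 14466 tested genes with such a region. All 5 match miR-182-5p, whose site reads TTGCCAAA. Sites are in capitals, in the sense of the transcript.
Col5a1: aagttctactcTTGCCAAAgaaatgcctgg
Col12a1: tatttagggatTTGCCAAAaatcctaccta
Col8a1: tccaaagtcaaTTGCCAAAaatccaaacca
Col25a1: ctatttttataTTGCCAAAaactcacataa
Col6a5: ttaaggcaacaagtagTTGCCAAAccaatg
None of these 5 genes was called between genotypes. Their log2 differences, knockout minus control, were -0.03, -0.23, -0.11, 0.10 and -0.01 in naive ganglia and 0.41, 0.27, -0.43, -0.12 and 0.08 after injury, in the order of the sequences. A match is a description of the letters and shows no binding.

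Genes that act on collagen were read from 7 lists. Beside the counts that follow, 2.12% of all genes were called higher and 0.359% lower after injury in controls. In knockouts 7.17% were called higher and 2.94% lower. The lists are short, and their counts were not tested against these shares. Of 26 genes for folding and processing, 0 were called after injury in controls and 3 were called higher in knockouts: Mia3, which helps export large cargo such as procollagen from the endoplasmic reticulum (log2 0.66, SE 0.11, edgeR adjusted p = 8.69e-04), Bmp1, a procollagen C-proteinase (0.93), and Plod3, a lysyl hydroxylase (0.43). The chaperone and hydroxylase genes otherwise did not pass, and the list had medians of 0.04 and 0.07. Of 5 crosslinking enzymes 0 were called in controls and 1 in knockouts: Loxl2, a lysyl oxidase, rose from 0.986 to 6.65 CPM on average (log2 2.71, SE 0.36, edgeR adjusted p = 1.70e-04). Its naive knockout values were low, 0.522 to 1.71 CPM, where 3 counts equal 0.292 to 0.395 CPM. In controls, where it was not called, Loxl2 was at 0.554 to 2.15 CPM in naive and 3.20 to 3.88 CPM in injured libraries.

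Of 14 tested genes for breakdown and its inhibitors, 2 were called higher in controls, and 2 higher and 1 lower in knockouts. Mmp16, a membrane-type metalloproteinase, rose in both, from 9.95 to 34.3 CPM in controls (log2 1.79, SE 0.15, edgeR adjusted p = 1.55e-06) and from 10.9 to 50.5 CPM in knockouts (log2 2.21, SE 0.16, edgeR adjusted p = 1.26e-07). The metalloproteinase inhibitor Timp1 rose in controls (log2 1.56) and Timp3 in knockouts (log2 0.58), where the collagen-degrading cathepsin Ctsk fell by 0.74.

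Of 10 tested collagen receptors, 2 were called higher in controls and 4 in knockouts. Itgb1, the β1 chain of the collagen-binding integrins, rose in both (log2 0.37 and 0.37), Lair1, an inhibitory receptor of immune cells, in controls (0.86), and Itga1 (0.87), Ddr2 (0.72) and Adgrg1 (0.56) in knockouts. Of 15 other basement membrane genes, 1 was called higher in controls and 3 in knockouts. The laminin chain gene Lama5 rose in both (log2 0.95 and 1.29), and Lamb2 (0.60) and Lamb3 in knockouts, the latter from a mean of 0.140 CPM, near the detection limit, to 3.28 CPM.

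Of 21 other matrix genes, 3 were called higher in each genotype. Tnc, encoding tenascin C, rose by 2.36 on the log2 scale in controls and 1.58 in knockouts, and the thrombospondin gene Thbs2 by 0.96 and 1.04, while Postn (1.27) was called in controls and Fbn1 (0.62) in knockouts. Of 16 genes of the TGF-beta pathway, a main inducer of collagen genes in fibroblasts, 2 were called higher in controls (Tgfbr1, log2 0.54, and Ltbp1, 0.75) and 6 in knockouts, among them Tgfbr2 (0.79), Tgfb1 (1.19), Tgfbr3 (0.48) and Ltbp1 (1.01). Between genotypes in naive ganglia, Colgalt2, a collagen galactosyltransferase, was called lower in knockouts (log2 -0.34). Over the 7 lists, Ctsk was the only gene called lower after injury. That a gene passed in 1 genotype and not in the other does not show a difference between them, and none of these genes was called by the interaction contrast.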

How the data were processed

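The deposited table holds whole-number counts per Ensembl gene for 15 libraries, which the authors made from TruSeq Stranded mRNA libraries, per the labels' protocols. Listed in the submitters' processing notes are TopHat2 2.0.4, SAMtools, Cufflinks, HTSeq 0.6.1 and DESeq2 with build GRCm38. No source used here gives the annotation release or the strand setting, so reads of overlapping genes may be shared. Symbols, coordinates and exon lengths came from GENCODE M21 and matched 37693 of 39179 identifiers. Identifiers without a symbol held 0.523% of counts.

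Counts were tested with edgeR 4.0.16 (R 4.3.3): filterByExpr, TMM, robust quasi-likelihood fit of 4 group means with 11 residual degrees of freedom, 5 contrasts, Benjamini-Hochberg adjustment over 16976 genes, threshold 0.05. SE is the log2 fold change divided by the square root of F. The script was tested on simulated counts. CPM use TMM-scaled totals, and levels per kb divide by the length of all exons joined. Alternatives were other scalings, filters, DESeq2 1.42.0, limma-voom (limma 3.58.1), a term for the Cre allele, fits of only the 2 groups compared, and each library left out. Depth limits low genes: 3 counts equal 0.277 to 0.571 CPM.

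The members and gene lists were chosen with earlier results of these data known. Values per library are given for members called in any comparison and for the 6 of the highest level per kb. Of each other list, up to 4 called genes of the smallest p in either injury comparison are named, and of marker lists up to 4 of the highest level. Further marker genes, among them Comp, Sox9 and Ibsp, and Adgrg1, Ltbp1, Colgalt2, Col5a2 and the ratios of chains were picked after their values were seen. Lists of pericyte, satellite glia, blood, meningeal and proliferation markers were also read, and 1 gene of each of the first 2 lists was called, in injured knockouts. A result that names a withheld item is not reported here.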

Additional observations from a re-analysis of the deposited data

Results flagged for a closer look

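Of the collagen values, 2 lay far from the rest of their group, both in naive knockout 8. Col5a3 was at 186.75 CPM there, against 130.87 to 138.25 CPM in the other naive knockouts. Col23a1 was at 54.361 CPM, against 46.894 to 48.084 CPM. They were the only such values among 74 combinations of gene and group with at least 4 libraries, where chance flags about 1 in 20. Without this library Col5a3 had a log2 fold change of 1.19 after injury in knockouts (edgeR adjusted p = 0.0221).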

How the results depend on the processing

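The count of 1 collagen gene called after injury in controls fell to 0 with library totals only, with limma-voom, with no filter on low counts, with the Cre allele as a term and with only the 2 groups compared. It ranged from 0 to 3 with 1 library left out: 3 (Col5a3, Col5a2 and Col27a1) without control SNI 23, and Col8a1 in place of Col5a3 without control SNI 15. The cause was not tested. The count of 3 in knockouts was 5 with DESeq2 (Col5a2 and Col12a1 added), 8 with only the 2 groups compared (Col18a1 was not among them) and 1 to 7 with 1 library left out: 1 (Col11a1) without knockout SNI 19 and 7 without SNI 13 (Col1a1, Col1a2, Col4a1 and Col23a1 added). The 0 genes of the naive genotype comparison became 1 (Col23a1) with only the 2 groups compared, and the 0 after injury ranged from 0 to 2, with 2 (Col4a2 and Col8a1) without control SNI 15 and 1 each without control SNI 18 (Col6a2) and knockout SNI 13 (Col1a1). The interaction called 0 members under each alternative run. Of 672 values of the 8 named members, 626 kept side and direction, 15 lost and 4 gained a call, 27 uncalled values changed sign, and 0 calls reversed. Over all genes, 421 were called after injury in controls against 673 with DESeq2, 273 with the Cre term and 213 with only the 2 groups compared (283 to 1506 with 1 library left out), and 1717 in knockouts against 4438 with only the 2 groups compared (587 to 1626). With library totals only, 761 of 1575 called genes in knockouts were higher, against 1218 of 1717. Genotype calls were 321 in naive ganglia (515 with DESeq2, 1017 with only the 2 groups compared, 151 to 229 with 1 library left out) and 177 after injury (925 with DESeq2, 47 with the Cre term, 0 with only the 2 groups compared, 57 to 3558 with 1 library left out). The interaction called 0 genes, against 12 with DESeq2 and 1235 without control SNI 15. No paired analysis was possible because no replicate number is shared between groups.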
